A study of Mus musculus with 12 samples.

Results

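The geniculate ganglion of BDNF knockout mouse embryos was set against that of their wild type. The geniculate ganglion is the ganglion of the facial nerve that holds the cell bodies of taste neurons and of a smaller group of neurons for touch of the outer ear. Its 2 groups were BDNF knockout and BDNF wild type embryos on the C57BL/6J background at embryonic day 14.5, with 3 arrays in each. These 6 arrays were taken by their titles from 12 in the series. The other 6 arrays, 3 of NT4 wild type and 3 of NT4 knockout on the 129 background at the same age, were used to estimate the spread and to test the difference between the knockout effects. All probe sets of the array other than its controls were tested, which left 45037 of 45101. The sources used here give neither the part of the gene that the knockout deletes nor the number of embryos behind an RNA sample. They call the 3 samples of a group biological replicates. The main p-values rest on the spread between replicates pooled over all 4 groups, those of the NT4 line included.

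BDNF (brain-derived neurotrophic factor) is a secreted neurotrophin. It is made as a precursor, is cut by proprotein convertases, and binds the receptor tyrosine kinase TrkB, encoded by Ntrk2, and the receptor p75, encoded by Ngfr. TrkB signals through the Ras-ERK, PI3K-AKT and phospholipase C pathways, which reach transcription factors such as CREB and the ETS proteins. Taste neurons of the geniculate ganglion depend on BDNF and on NT4, a related ligand of TrkB, for survival and for reaching their targets, and mice without BDNF are known to lose many of these neurons before birth.

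Markers of the tissue were bright on the 6 arrays. The ATP receptor gene P2rx3 of sensory afferents read 7558 to 8600.0, the visceral sensory factor gene Phox2a 1126 to 1318, and the neuronal tubulin gene Tubb3 13903 to 15142. The visceral sensory factor Tlx3 was dim, at 45.9 to 69.8. Array medians lay between 168 and 179, log2 values of replicates correlated at 0.967 to 0.977, and those of knockout with wild-type arrays at 0.965 to 0.979. The signal of the control probes for Gapdh was 2.20 to 2.55 times higher at the 3' than at the 5' end. On BDNF wild type replicate 2 the log2 level of Xist exceeded that of the Y-linked genes by 8.09, against 2.86 to 4.65 on the other 5 arrays.

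Genes of the eye lens were bright on some arrays and dim on others of the same group. Crystallins are the proteins that fill the fibre cells of the lens. Summed over 22 measured lens genes of 23 listed, the intensity was 37679.6, 170157 and 33494 on the wild-type arrays and 2852, 62878 and 87093 on the knockout arrays (replicates 1 to 3, the order used throughout). BDNF wild type replicate 2 was thus the highest and BDNF knockout replicate 1 the lowest, with the other 4 arrays between them and the groups overlapping. Cryba1, a beta-crystallin, read 7963, 18603 and 7157 in wild type against 439, 11541 and 13294 in knockout ganglia. Mip, the water channel of lens fibre membranes, read 3120.4, 9504 and 1457 in wild type against 26.6, 4604 and 5967 in knockout ganglia. These genes did not pass the test, and their standard errors were far above the median of 0.204 over all probe sets, at 1.23 for Cryba1 and 1.80 for Mip. The lens factor gene Foxe3 was dim on all 6 arrays, at 81.8 to 99.5. In the NT4 line the summed intensity ran from 10388 to 135437. The lens genes were picked after their values were seen, and their part in the results below was not tested beyond leaving arrays out.

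**Figure D1:**
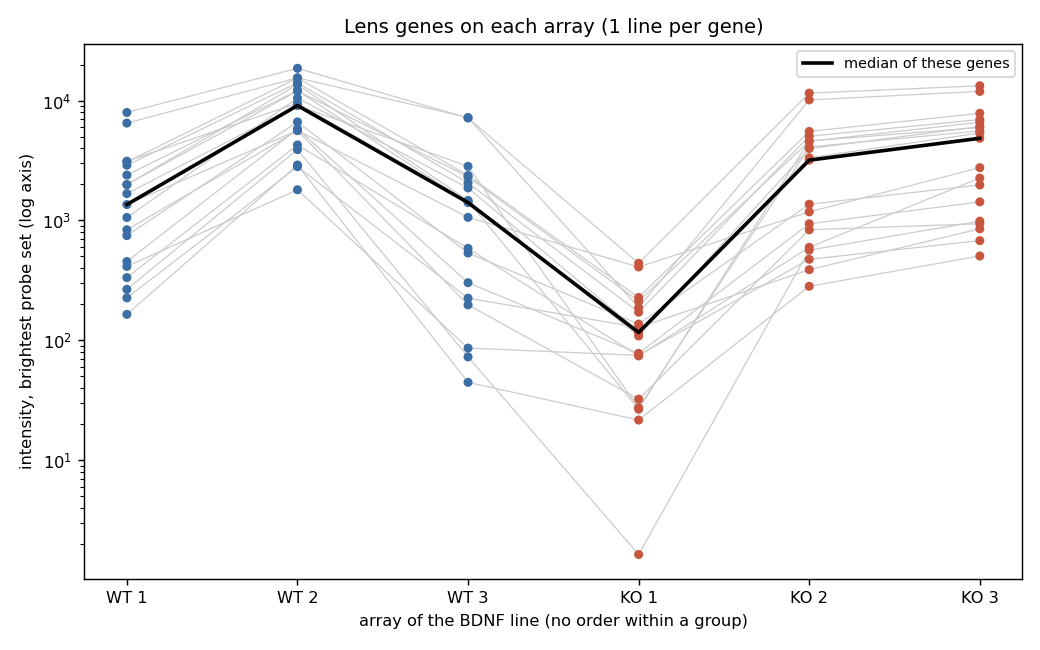
Intensity (log axis) of 19 lens genes that exceed 1000 on at least 1 of the 6 arrays, by array, with 1 grey line per gene, blue points for wild type, red points for knockout and the median in black. The median is 9095 on BDNF wild type replicate 2 and 116 on BDNF knockout replicate 1, and the groups overlap.

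The targeted gene was examined first. Bdnf probe set 1422168_a_at (chromosome 2) read 243, 169 and 288 on the wild-type arrays and 25.2, 26.9 and 23.3 on the knockout arrays. Every knockout array was far below every wild-type array, and the knockout arrays differed little from each other. The log2 difference, knockout minus wild type, was -3.18 (SE 0.25, limma, adjusted p = 0.00176), with linear means of 25.1 ± 1.79 for the knockout against 233 ± 60.0 for the wild type (SD over 3 arrays of each). With 16 added before log2 the difference was -2.57. A second Bdnf probe set, 1422169_a_at, read 269, 243 and 273 in wild type against 319.6, 348 and 278 in knockout ganglia, a difference of 0.27 (adjusted p = 0.867). It was slightly higher on every knockout array and did not show the loss. Since the deleted part of the gene is not given, it cannot be said whether this probe set lies outside it, and it checks nothing. On the first probe set all 6 arrays went with their labels. In the NT4 line that probe set read 358 and 357 on average in wild type and knockout.

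Sequence just upstream of the start of Bdnf and of 3 other genes described below is shown so that the letters recognised by CREB can be seen in place. The stretches run from 250 bases before to 50 bases after a gene start, are taken from RefSeq on build GRCm38.p6, and are written 5' to 3' on the strand of the gene. Capitals mark the CREB half-site TGACG, searched on both strands, where the reverse strand reads CGTCA. The full palindrome TGACGTCA, which contains the half-site on each strand, was searched too and was found in none of these 4. Bdnf has 7 annotated starts, of which the one shown alone held a half-site. Nr5a2 has 2 separate stretches, 1 for each start, of which 1 is shown and neither held a half-site. Scg5 rose in the knockout, Nr5a2 fell, and Cntn2 had lower values on all 4 of its probe sets.
Bdnf, plus strand, chr2:109692186-109692485: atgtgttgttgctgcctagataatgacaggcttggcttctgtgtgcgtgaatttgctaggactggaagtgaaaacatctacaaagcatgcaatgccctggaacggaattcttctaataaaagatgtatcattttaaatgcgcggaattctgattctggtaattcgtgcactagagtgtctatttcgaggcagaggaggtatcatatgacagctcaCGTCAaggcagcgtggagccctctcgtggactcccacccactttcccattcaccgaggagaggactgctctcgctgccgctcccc
Scg5, minus strand, chr2:113829042-113829341: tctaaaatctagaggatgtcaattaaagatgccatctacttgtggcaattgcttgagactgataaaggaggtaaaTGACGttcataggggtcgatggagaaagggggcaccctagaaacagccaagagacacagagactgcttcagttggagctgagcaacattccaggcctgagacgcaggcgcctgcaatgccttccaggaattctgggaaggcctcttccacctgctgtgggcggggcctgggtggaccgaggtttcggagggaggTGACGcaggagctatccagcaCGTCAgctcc
Nr5a2, minus strand, upstream of 2 starts, chr1:136960399-136960698: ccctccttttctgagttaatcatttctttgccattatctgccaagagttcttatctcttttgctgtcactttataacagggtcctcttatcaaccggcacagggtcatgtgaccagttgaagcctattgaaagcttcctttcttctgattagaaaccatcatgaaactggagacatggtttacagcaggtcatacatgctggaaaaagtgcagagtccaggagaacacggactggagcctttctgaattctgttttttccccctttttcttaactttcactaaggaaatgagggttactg
Cntn2, minus strand, chr1:132542891-132543190: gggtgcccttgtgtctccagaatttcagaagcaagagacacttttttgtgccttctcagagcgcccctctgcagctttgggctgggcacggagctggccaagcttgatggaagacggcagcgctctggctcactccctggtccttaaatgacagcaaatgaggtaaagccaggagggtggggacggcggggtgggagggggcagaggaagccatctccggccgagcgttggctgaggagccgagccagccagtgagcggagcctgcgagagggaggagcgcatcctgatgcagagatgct
The stretch of Bdnf held 1 half-site and that of Scg5 held 3, while those of Nr5a2 and Cntn2 held none. The stretches of Plxnc1 and Cd44, also described below, were searched as well, held none and are not shown. Over 32851 such stretches 20.8% held the half-site and 1.79% the full palindrome. A match describes letters and shows no binding.

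With BDNF lost, 8 probe sets passed the threshold of adjusted p under 0.05, 3 higher and 5 lower in the knockout. They are 0.0178% of the 45037 tested, and 3025 (6.72%) had an unadjusted p under 0.05. Bloc1s6, Pak6 and Scg5 rose, and Bdnf, Rmdn3, Nr5a2, a probe set shared by Serinc4 and Ell3, and a probe set with no gene symbol fell. Fitted with limma on the 6 arrays of the BDNF line alone, 0 passed, with 2465 at an unadjusted p under 0.05, and a plain t statistic also gave 0. Without BDNF wild type replicate 2 and BDNF knockout replicate 1, the arrays of highest and lowest lens level, 2 passed, Bloc1s6 and Bdnf. Without any 1 of the BDNF wild type or NT4 wild type arrays 4 or 5 passed.

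Scg5 encodes 7B2, the chaperone of prohormone convertase 2 in secretory granules. Its probe set 1423150_at read 1774, 1502 and 1861 on the wild-type arrays and 4436, 4258 and 4631 on the knockout arrays. The lowest knockout array was more than 2 times the highest wild-type array. The log2 difference was 1.38 (SE 0.15, adjusted p = 0.0196). It lost its call in 9 of 12 fits that left out 1 array, with log2 differences of 1.29 to 1.44 over all settings. Of the other granins none passed the threshold. Scg2, a granin of the same vesicles, read 1238, 1321 and 1264 against 1489, 1414 and 1629 (log2 difference 0.24, adjusted p = 0.899), and Chga, chromogranin A, differed by -0.16 (adjusted p = 0.932).

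Pak6 is a serine/threonine kinase of the p21-activated kinase family. Probe set 1455200_at read 65.9, 63.2 and 85.1 in wild type against 399.7, 273 and 298 in knockout ganglia, with no overlap (log2 difference 2.17, SE 0.19, adjusted p = 0.00497). The second Pak6 probe set was dim, at 52.7 to 112 on the 6 arrays, and differed by -0.08. The wild type of the BDNF line was the low group, since the NT4 line read 226 and 280.3 in wild type and knockout.

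Bloc1s6 encodes pallidin, a member of the BLOC-1 complex, which serves the making of lysosome-related organelles. Probe set 1457088_at read 124, 109.9 and 75.3 in wild type against 1027, 996 and 1247 in knockout ganglia (log2 difference 3.42, SE 0.18, adjusted p = 0.000117). Here too the wild type of the BDNF line alone was low. The brightest Bloc1s6 probe set, 1417349_at, read 1941, 1946 and 2202 in wild type against 1947, 1944 and 1835 in knockout ganglia. The third, 1417350_at, read 169, 149 and 313 against 223, 389 and 394, with overlap (log2 difference 0.71, limma adjusted p = 0.695). On that one the NT4 line averaged 815 and 803 in wild type and knockout. The gene's probe sets thus disagreed.

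Rmdn3 encodes PTPIP51, a protein that tethers mitochondria to the endoplasmic reticulum. Probe set 1428196_a_at read 1839, 2042 and 1901 in wild type against 341, 655 and 560.0 in knockout ganglia (log2 difference -1.94, SE 0.21, adjusted p = 0.0196). Its other probe set, 1452704_at, read 662, 687 and 649 against 444, 482 and 623. Both were lower on each knockout array than on each wild-type array, but the second differed by -0.38 and did not pass (adjusted p = 0.644). In the NT4 line the first averaged 933 and 843, between the levels of the BDNF groups.

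Nr5a2, also called LRH-1, is an orphan nuclear receptor known for control of bile acid and steroid genes and for roles in the early embryo. Among called probe sets with a single symbol it is the one not on chromosome 2, and all 4 of its probe sets were lower on every knockout array. The brightest, 1456521_at, read 1366, 1209.9 and 1219 in wild type against 528, 472 and 301 in knockout ganglia (log2 difference -1.58, SE 0.19, adjusted p = 0.049). Probe set 1420410_at read 171, 98.8 and 230.2 against 61.1, 70.8 and 57.3, and probe set 1449706_s_at 196, 179.9 and 189 against 136, 122 and 124. The fourth, 1449707_at, read 239.9, 157 and 169 against 129, 63.8 and 117. Over the 4 the median difference was -1.11, while the brightest was close to the threshold and kept its call in 2 of 12 fits that left out 1 array.

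Probe set 1442514_a_at matches both Serinc4, a member of the serine incorporator family, and Ell3, an elongation factor of RNA polymerase II. It read 1361, 1244 and 1263 in wild type against 656, 706 and 589.9 in knockout ganglia (log2 difference -0.99, adjusted p = 0.0196), and which of the genes gave the signal is unknown. Probe set 1446755_at has no symbol and showed the widest gap, 2097, 1605 and 2141 against 69.2, 133 and 44.0 (log2 difference -4.71, adjusted p = 0.00173). The NT4 line read 1551 and 1579 there, so the BDNF knockout was the low group.

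**Figure D2:**
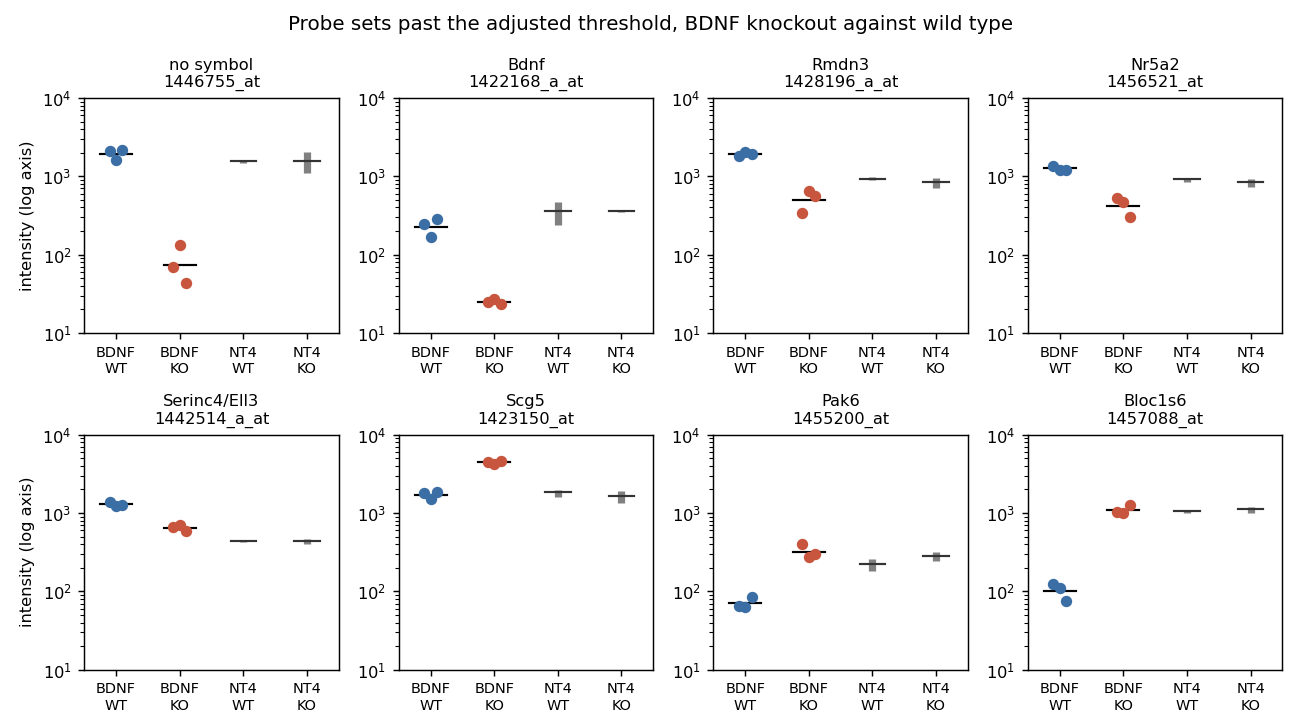
Intensity (log axis) of the 8 probe sets past the threshold. Points are the 3 arrays of BDNF wild type (blue) and BDNF knockout (red) with the mean of their log2 values as a line, and grey bars span the 3 arrays of each NT4 group with their mean. The BDNF groups do not overlap in any panel, and for Bloc1s6 and Pak6 the NT4 groups lie beside the BDNF knockout.

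**Figure D3:**
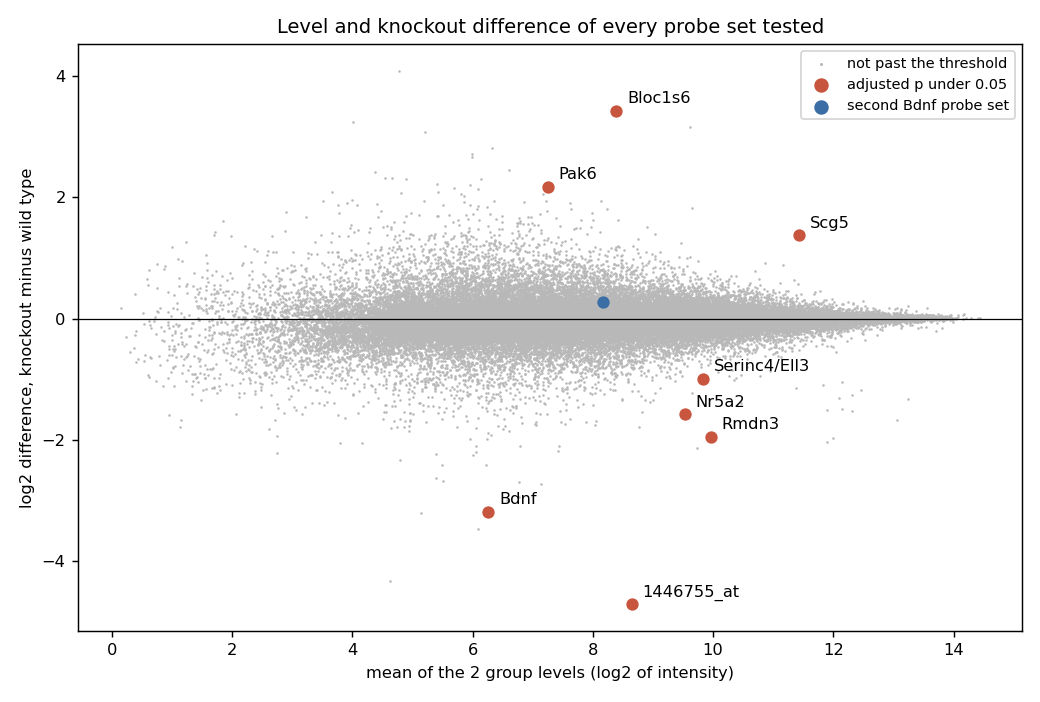
Log2 difference, knockout minus wild type, of all 45037 probe sets against the mean of the group levels on the log2 scale. Red points are the 8 past the threshold and the blue point is the second Bdnf probe set at 0.27. The other points below -1 at the highest levels are mostly crystallin genes, which did not pass.

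Of the 8 probe sets, 5 belong to single-symbol genes on chromosome 2, the chromosome of Bdnf, among its 2806 probe sets. Nr5a2 lies on chromosome 1. The shared probe set 1442514_a_at and 1446755_at were not assigned a chromosome, so whether they lie on chromosome 2 is not known here. Counted in measured genes, Scg5 lies 22 from Bdnf, Pak6 47, Rmdn3 60 and Bloc1s6 139. Within 50 genes of Bdnf 2.82% of 213 probe sets had an unadjusted p under 0.001 and within 51 to 150 genes 3.48% of 374, against 0.314% of 1594 more than 300 genes away and 0.238% of 31930 on other chromosomes. With the probe sets of single-symbol genes on chromosome 2 left out before adjustment, 1 probe set passed, 1446755_at. Probe sets with no symbol or several, 1446755_at among them, were not assigned a chromosome and stayed in. Position near the targeted gene and loss of BDNF cannot be told apart by this design.

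Probe sets of a single gene were then read together, since a single one can fail. A gene was taken where at least 2 of its probe sets each had an unadjusted p under 0.05, the same sign and groups that did not overlap, at least 1 of them with a mean above 50. This held for 57 genes in the lower direction (0.633% of 9010 genes with 2 or more probe sets) and 32 in the higher direction (0.355%). Over all probe sets the groups did not overlap with the knockout lower for 2948 (6.55%) and with it higher for 1822 (4.05%). Apart from the Nr5a2 and Rmdn3 probe sets above, none of the probe sets of these genes that are described here passed the adjusted threshold.

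The 10 leading lower genes included Cntn2, Plxnc1, Cd44, B2m and Chst15. Cntn2 (TAG-1) is a contactin on the axons of many sensory neurons that is used in outgrowth and bundling, and all 4 of its probe sets separated the groups. The brightest, 1435165_at, read 3369, 3293 and 3564 in wild type against 2532, 2868 and 2246 in knockout ganglia. Probe set 1456962_at read 1549, 1890.2 and 1702 against 984, 961 and 735, and 1450523_at 1219, 1140.0 and 1427 against 636, 739.8 and 926. The log2 differences of Cntn2 ran from -0.95 to -0.43 with a median of -0.84, and the 4 adjusted p-values lay between 0.257 and 0.531. In bulk tissue, fewer cells of a type and less RNA per cell cannot be told apart.

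Plxnc1 encodes the plexin that binds semaphorin 7A. Its brightest probe set read 1163, 1438 and 1383 in wild type against 832, 962 and 777 in knockout ganglia (log2 difference -0.63, adjusted p = 0.257). All 6 Plxnc1 probe sets had negative differences, 3 of them by the rule, with a median of -0.53. Cd44, the hyaluronan receptor, lies 38 measured genes from Bdnf. Its probe set 1434376_at read 2503, 2448 and 2562 against 1708, 1721 and 1579 (log2 difference -0.59, adjusted p = 0.229), and 3 of its 4 probe sets met the rule.

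B2m, the light chain of class I antigen-presenting molecules, lies 126 measured genes from Bdnf and was lower on both of its probe sets. Probe set 1452428_a_at read 4269, 3749.6 and 3796 against 2087, 1907 and 1435, and 1449289_a_at 4990.2, 5060.2 and 5202 against 3974, 3461 and 3024. Chst15, a sulfotransferase that acts on chondroitin sulfate, read 826, 595 and 789 against 198, 388 and 311 on 1426514_at and 2948, 2896 and 3252 against 2217, 2541 and 1994 on 1452092_at. Separation of the groups on these probe sets was required by the rule that picked B2m and Chst15, so it is no further finding. The log2 differences were -1.14 and -0.55 for B2m and -1.34 and -0.44 for Chst15, with no adjusted p under 0.05.

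The remaining lower genes were less even. Gda, guanine deaminase, met the rule on 2 of 3 probe sets, and its 1435748_at read 491, 599.6 and 508 against 348, 315 and 203 where the NT4 line read 25.8 and 37.8. Nkain1, a partner of the sodium pump, met it on 3 of 5 probe sets, with log2 differences from -0.50 to -0.03. Otud5, a deubiquitinase, met it on 2 of 4, all 4 of them negative. Relch met it on 2 of 6 probe sets, but the median over its 6 was 0.01.

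The 10 leading higher genes included 2 of macrophages, Csf1r and Cybb. Csf1r, the receptor for the growth factor of macrophages, read 185, 457 and 352 in wild type against 647, 966 and 849 in knockout ganglia on 1419872_at (log2 difference 1.38, adjusted p = 0.428). Its probe set 1419873_s_at separated the groups too, at 128, 216 and 195 against 293, 345 and 399, while 1423593_a_at did not (log2 difference -0.05). Cybb, the oxidase subunit of phagocytes, was dim, at 24.7 to 43.2 in the wild type and 55.3 to 136 in the knockout on its brightest probe set. In the NT4 line Csf1r 1419872_at averaged 421 in wild type and 1071 in knockout, and that Cybb probe set 85.3 and 58.5.

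Eya1, a transcriptional cofactor of the placodes from which the ganglion arises, met the rule on 2 of 3 probe sets. Its 1457424_at read 1807, 1692 and 1739 against 2371, 2429.6 and 2316 (log2 difference 0.44), while its brightest probe set differed by 0.15. Adgrl3, a latrophilin receptor at synapses, read 920.4, 695 and 894 against 1075, 1303 and 1348 on 1428523_at, 1 of 2 of its 6 probe sets that met the rule. Olfm3, a secreted olfactomedin, read 1093, 1199 and 1126 against 1853, 1425 and 1679 on 1425898_x_at. Pcdh19, a protocadherin, S1pr2, a receptor for sphingosine 1-phosphate, Dmrt3, a transcription factor, Nat8f4 and Fam184a had median differences over all their probe sets between 0.41 and 0.77. The Dmrt3 and Nat8f4 probe sets were dim, at most 239 on any of the 6 arrays.

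**Figure D4:**
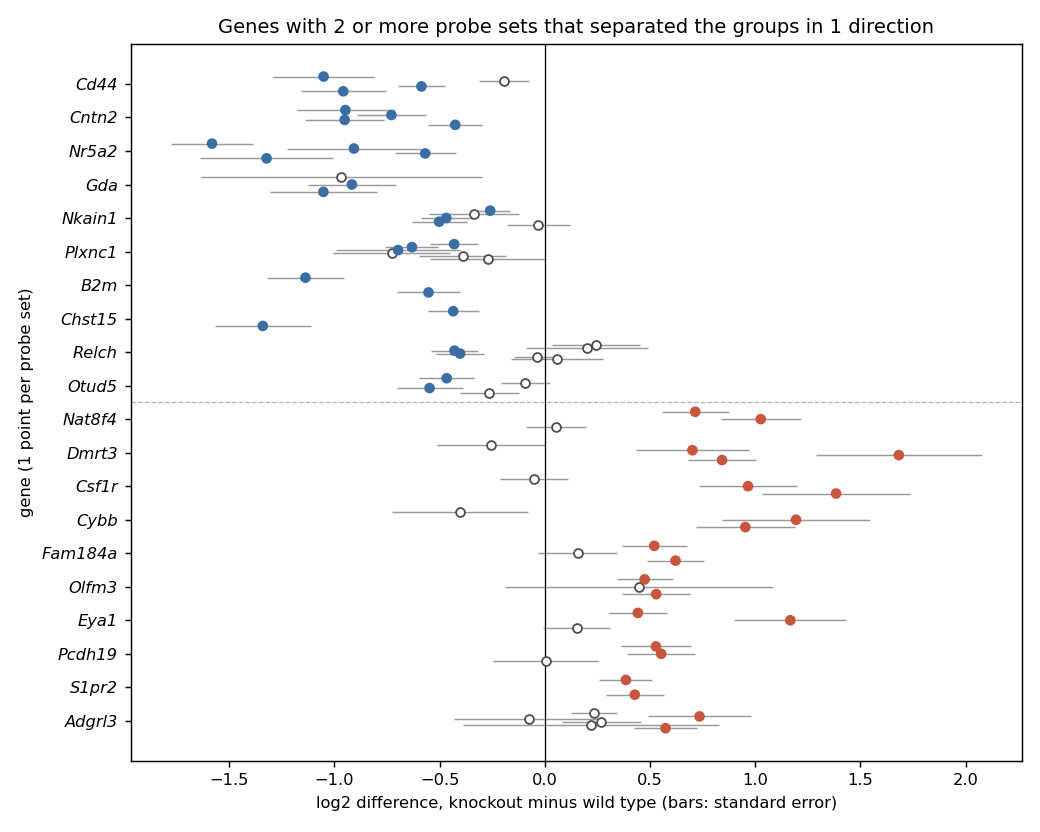
Log2 difference (knockout minus wild type, with the standard error as a bar) of every probe set of the 10 leading lower genes (top) and the 10 leading higher genes (bottom). Filled points had an unadjusted p under 0.05 and groups that did not overlap. All 4 probe sets of Cntn2 and of Nr5a2 are filled, while Relch has 4 open points around 0.

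The genes of the neurotrophin pathway were read next, each by its brightest probe set unless stated. Over all 18193 genes read this way, the unadjusted threshold of 0.05 was met by 393 (2.16%) with the knockout higher and 715 (3.93%) with it lower, 4 (0.022%) passed the adjusted threshold, and the median log2 difference was -0.02. Of the 34 lists examined, 675 of 742 genes were measured, 1 of them was called (Scg5), and 22 were higher and 28 lower at the unadjusted threshold. With 1 of the 6 arrays left out in turn, the median turned sign at least once in 21 of the 34 lists and kept it in 13, and the ERK feedback, somatosensory and connective tissue lists were among the 13.

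Among the ligands, Ntf5, the gene of NT4, read 147, 110.2 and 118 in wild type against 119, 141 and 153 in knockout ganglia (log2 difference 0.14, adjusted p = 0.973). The groups overlapped. In the NT4 line this probe set averaged 41.1 and 38.6 in wild type and NT4 knockout, so it showed no loss there either, and whether it reports Ntf5 was not tested.

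For the receptor of BDNF no difference beyond the spread was found. Ntrk2 read 6443, 5856 and 6837 in wild type against 5933, 5983 and 6580.3 in knockout ganglia on its brightest probe set (log2 difference -0.05, SE 0.11). All 8 Ntrk2 probe sets overlapped between the groups, with log2 differences of -0.33 to 0.24. Ngfr, the p75 receptor that all neurotrophins bind, read 6866, 6625 and 7333 against 6530.4, 6488 and 6706, with -0.26 to 0.02 over its 3 probe sets. Both genes were thus bright in the ganglion without BDNF.

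Of 12 measured receptors and processing genes, 2 were higher at the unadjusted threshold and none was called. Without BDNF wild type replicate 2, and likewise without BDNF knockout replicate 3, 0 were higher at that threshold, and 1 was higher when BDNF knockout replicate 2 or the third wild-type array was left out. Ntrk3, the receptor of NT3, read 2376, 1218 and 1448 against 1894, 3456 and 3963 on 1443970_at (log2 difference 0.88, SE 0.35, adjusted p = 0.695), with overlap, and the median over its 8 probe sets was 0.28. Sorl1, a sorting receptor of the sortilin family, read 772, 306 and 645 against 969, 1032 and 1252 (log2 difference 1.01, adjusted p = 0.611). Over the 3 Sorl1 probe sets the median was 0.48. Sort1, the sortilin that binds proBDNF, differed by 0.18 on its brightest probe set, while 1423362_at went the other way, at 2159, 1998 and 1679.6 against 1452, 1448 and 1593 without overlap (log2 difference -0.37, adjusted p = 0.602), so its probe sets disagreed. Those of its relative Sorcs1 disagreed too, with 0.12 on the brightest and -0.45 on 1421509_at, where the groups did not overlap. Sorcs2 differed by -0.01 and Sorcs3 by 0.03 and -0.16. The proteases that cut the precursor differed little, with 0.05 for Furin, 0.01 for Pcsk1, -0.10 for Pcsk6 and -0.01 for Plat, none past the threshold.

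Inside the cell, 46 measured components of Trk signalling had a median log2 difference of -0.01. At the unadjusted threshold 1 was lower, the adaptor Shc1, which read 1861, 1493 and 1318 against 961, 1036 and 1549 (log2 difference -0.42, adjusted p = 0.743), with overlap. Over its 2 probe sets the median was -0.23. The other components lay between -0.55 and 0.16.

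The ERK feedback and ETS list collects genes that ERK signalling is known to switch on. Of 14 measured, 3 were lower at the unadjusted threshold, none higher and none called, with a median of -0.20 against -0.02 over all genes. Etv4 (Pea3), an ETS factor that neurotrophins induce in sensory neurons, read 692, 295 and 286 in wild type against 63.2, 146 and 183 in knockout ganglia (log2 difference -1.70, SE 0.41, adjusted p = 0.379). On this probe set the groups did not overlap, though BDNF wild type replicate 1 was more than 2 times either other wild-type array. The median over the 2 Etv4 probe sets was -0.86, so the other probe set differed less. Spred3, an inhibitor of Ras-ERK signalling, read 205, 231 and 293 against 154, 191 and 137 (log2 difference -0.60). Dusp6, the phosphatase that switches ERK off, read 1490.0, 1452 and 1543 against 1407, 1045 and 985 (log2 difference -0.40). Etv5, the close relative of Etv4, was lower on all 3 knockout arrays, at 2788, 3069.7 and 3092 against 2254, 2548 and 2421 (log2 difference -0.31). Phlda1 went the other way, at 529, 697 and 759 against 836, 979 and 806 (log2 difference 0.41). No adjusted p in the list was below 0.379, and leaving out 1 array at a time gave list medians of -0.21 to -0.11.

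Immediate early and activity genes, 25 in all, had a median of -0.04, with 2 lower at the unadjusted threshold. Vgf, a secreted peptide precursor that neurotrophins induce, read 2454, 1912 and 2069 against 1874, 1281 and 1542 (log2 difference -0.46, adjusted p = 0.655). Ier2, an immediate early gene, read 271, 322 and 315 against 278, 188 and 215 (log2 difference -0.43), with overlap. Egr1 and Arc, targets of activity, differed by 0.12 and -0.04 and overlapped.

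The GDNF family was examined as the other trophic system of cranial sensory neurons. Of 9 genes, Gdnf itself was lower at the unadjusted threshold, at 247, 91.1 and 78.2 against 63.1, 77.0 and 54.3, with BDNF wild type replicate 1 far above the rest. The receptor kinase gene Ret read 1730.4, 1289 and 1438 against 1614, 1753 and 1697 and the coreceptor genes Gfra1 and Gfra2 differed by -0.03 and 0.30, none past the threshold.

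Of 30 cell death genes, 2 were lower at the unadjusted threshold and none higher, with a median of -0.01. Dffa, the inhibitor of the DNA-cutting nuclease of apoptosis, read 1443, 1529 and 1382 against 919, 913 and 1221 (log2 difference -0.52, adjusted p = 0.53). Over the 2 Dffa probe sets the median was -0.24. Tnfrsf21, death receptor 6, read 2337, 1818 and 1840.2 against 1373, 1533 and 1585 (log2 difference -0.41). Next by unadjusted p were Tnfrsf10b, at -0.70, and Bik, at 1.58 with overlap, neither at the unadjusted threshold. Of the 30 genes 14 had positive and 16 negative differences. The BH3-only genes Bcl2l11, Hrk and Bbc3, named for their known role in apoptosis and not by p, differed by 0.20, 0.39 and 0.19. None of these 3 was at the unadjusted threshold. Of 24 injury and growth genes none passed the unadjusted threshold in either direction, with Atf3 at -0.15, Gap43 at -0.06 and Sox11 at -0.02.

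Neuronal identity was read from 2 lists. Of 15 visceral and gustatory genes none was higher or lower at the unadjusted threshold, and the median was -0.02. Among these, P2rx3 differed by -0.02 (SE 0.11), Phox2a by 0.01 (SE 0.12) and Isl1, a sensory homeodomain factor, by -0.04. The 20 general neuronal genes likewise had no member at that threshold, with a median of -0.02.

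The somatosensory list stood lower in part. Of 13 measured genes, 3 were lower and 1 higher at the unadjusted threshold, none was called, and the median was -0.18. Pou4f1 (Brn3a), a homeodomain factor of somatosensory neurons, read 4446, 4916 and 4968 in wild type against 2886, 3590.4 and 3974 in knockout ganglia (log2 difference -0.47, SE 0.15, adjusted p = 0.566). Avil, advillin, an actin-binding protein of sensory neurons, read 2648, 2275 and 2824 against 1683, 1843 and 2011 (log2 difference -0.48). Prrxl1 (Drg11), a homeodomain factor of nociceptive circuits, read 723, 562 and 873 against 466, 426 and 499.5 (log2 difference -0.61). In these 3 of 13 genes every knockout array was below every wild-type array, against 1239 of 18193 over all genes. The higher gene, Trpv1, the capsaicin receptor, was dim, at 12.3, 24.8 and 15.7 against 52.2, 36.5 and 139. Tac1, the substance P precursor, differed by -0.04. Leaving out 1 array at a time gave list medians of -0.26 to -0.05, the latter without BDNF knockout replicate 1, the array of lowest lens level.

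Of 9 noradrenergic genes 2 were higher at the unadjusted threshold, with a median of 0.12. Th, tyrosine hydroxylase, read 681, 415 and 509 against 931, 677 and 960.3 (log2 difference 0.69, adjusted p = 0.562), with overlap. Ddc, the next enzyme of the pathway, was dim, at 86.7, 41.8 and 48.6 against 129, 115 and 75.8. Dbh, the last enzyme, differed by 0.12.

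Of 31 semaphorins, plexins and neuropilins, 2 were higher and 1, Plxnc1, lower at the unadjusted threshold, with a median of 0.06. Sema3d, a secreted repellent, read 936, 829 and 937 against 1221, 1083 and 1387 (log2 difference 0.45), and Plxnb2, a semaphorin 4 receptor, 280.4, 271 and 275 against 445, 368 and 368 (log2 difference 0.51). Of 20 ephrins and Eph receptors, 2 were higher and 1 lower. Epha7 read 352, 436 and 434 against 731, 533 and 511 (log2 difference 0.53) and Epha3 1487, 1191 and 1482 against 1625, 1787 and 1903 (log2 difference 0.36). Efna2, a ligand of these receptors, read 1037, 838 and 988 against 574, 761 and 719 (log2 difference -0.48, median over its 2 probe sets -0.28). Without overlap, 3 of the 20 were higher and 2 lower, Epha7, Epha3 and Efna2 among them. Over all genes these counts were 762 and 1239 of 18193. No member passed the adjusted threshold.

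Of 30 genes for Slits, Robos, netrins and contactins, 2 were higher and 3 lower at the unadjusted threshold, and the median was -0.01. Slit1, a secreted ligand of the Robo receptors, read 669, 613 and 606 against 400.4, 499 and 397 (log2 difference -0.55, adjusted p = 0.536), and both of its probe sets met the rule for agreeing probe sets. Flrt3, an adhesion protein that binds latrophilins and Unc5 receptors, read 963, 1179 and 1217 against 1428, 1486 and 1449.5 (log2 difference 0.38). Ntn3, a netrin, was uneven within the wild type, at 308, 449 and 75.4 against 115, 92.8 and 36.9. The receptor genes Robo1 and Dcc differed by 0.19 and -0.26.

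Among 24 neuropeptides and granins, Scg5 was the 1 called member. Sst, somatostatin, read 696, 688 and 716 against 1322, 920.0 and 1139 (log2 difference 0.67, adjusted p = 0.496), without overlap and with even wild-type arrays. Penk, the enkephalin precursor, differed by 0.38, with adjusted p = 0.943.

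Of 28 potassium channels 3 were lower at the unadjusted threshold, none was called, 20 had negative differences, against 10075 of 18193 over all genes, and the median was -0.10. With 1 array left out 16 to 23 were negative, and the median was -0.03 without BDNF knockout replicate 1. Kcnd3, a channel of the A-type current, read 315, 554 and 425 against 214, 292 and 271 (log2 difference -0.71, adjusted p = 0.618). Its relative Kcnd2 was dim, at 163, 24.5 and 152 against 18.6, 21.0 and 6.7, and the median over its 4 probe sets was -0.37. Kcna6, a delayed rectifier, read 416, 276 and 258 against 145, 179 and 249 (log2 difference -0.73). These 3 of 28 were lower without overlap on these probe sets, against 1239 of 18193 over all genes. They were also the ones named for the smallest unadjusted p.

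Of 25 sodium and calcium channel genes 1 was lower, Cacnb1 (log2 difference -0.55, median over its 4 probe sets -0.13), and the list median was -0.02. Transmitter receptors had 1 higher and 2 lower of 32 with a median close to 0, and synaptic vesicle genes 1 lower of 29, Unc13a, a priming factor, at 603, 374 and 463 against 355, 300.2 and 374.

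Markers of other cells were read to see what else differed. Of 17 Schwann cell and satellite glia genes 1 was higher at the unadjusted threshold, Cdh19 (log2 difference 0.86), and the median was 0.03, with Sox10 at 0.04. Of 16 macrophage genes 12 had positive differences, against 8118 of 18193 over all genes, and 1, Csf1r, was higher at the unadjusted threshold. The positive count was 7 without BDNF wild type replicate 2 and 8 without BDNF knockout replicate 1. Ptprc (CD45) read 44.1, 50.8 and 82.6 against 322, 166 and 91.1, without overlap, while Aif1 and Cx3cr1 overlapped, at log2 differences of 0.07 and -0.26. Summed over the list, the wild-type arrays read 5289 to 5644 and the knockout arrays 5999 to 7409. The median was 0.16, and -0.01 without BDNF wild type replicate 2. In the NT4 line the median of this list, NT4 knockout minus NT4 wild type, was 0.61.

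All 18 connective tissue genes had positive differences, against 8118 of 18193 over all genes. Their median was 0.22, with a range of 0.02 to 0.52. In the NT4 line the list median, NT4 knockout minus NT4 wild type, was 0.33. Only Pdgfrb, a receptor of mural and mesenchymal cells, was at the unadjusted threshold, at 635, 674 and 792 against 996, 1097 and 817 (adjusted p = 0.706). The summed level was 45984 to 51358 in the wild type and 49849 to 62933 in the knockout, and without BDNF knockout replicate 2 the median was 0.11 with 12 of 18 positive. The 18 cartilage genes had a median of 0.12, and -0.17 without the same array, on which Acan, the proteoglycan of cartilage, read 3258 against 431 to 1076 on the other 5. The 15 endothelial genes had a median of 0.04, with Flt1, a VEGF receptor, at 95.1, 93.3 and 158 against 409.6, 128 and 206, and muscle, red cell and inner ear genes had medians of -0.01, -0.02 and 0.10, with 1 of 11 inner ear genes lower, Tecta. The part of these tissues in the results above was not tested.

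Cell cycle genes had a median of -0.04, with 1 lower of 25, the mitotic checkpoint kinase Bub1b, at 468, 373 and 488 against 213, 364 and 169, while Mki67 differed by -0.07. That median rested on single arrays, since it was -0.16 with 22 of 25 negative without BDNF wild type replicate 1, -0.15 without BDNF knockout replicate 2, 0.07 without BDNF wild type replicate 2, 0.03 without BDNF knockout replicate 1 and 0.01 without BDNF knockout replicate 3. Respiratory chain (28 genes), stress (19 genes) and cholesterol synthesis (14 genes) had medians between -0.03 and 0.01. Hypoxia and glycolysis had a median of 0.06, with Egln3, the oxygen-sensing hydroxylase, at 314, 409 and 299 against 533, 458 and 742 (log2 difference 0.75). Interferon and antigen presentation had a median of -0.05, with B2m its 1 member at the unadjusted threshold.

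**Figure D5:**
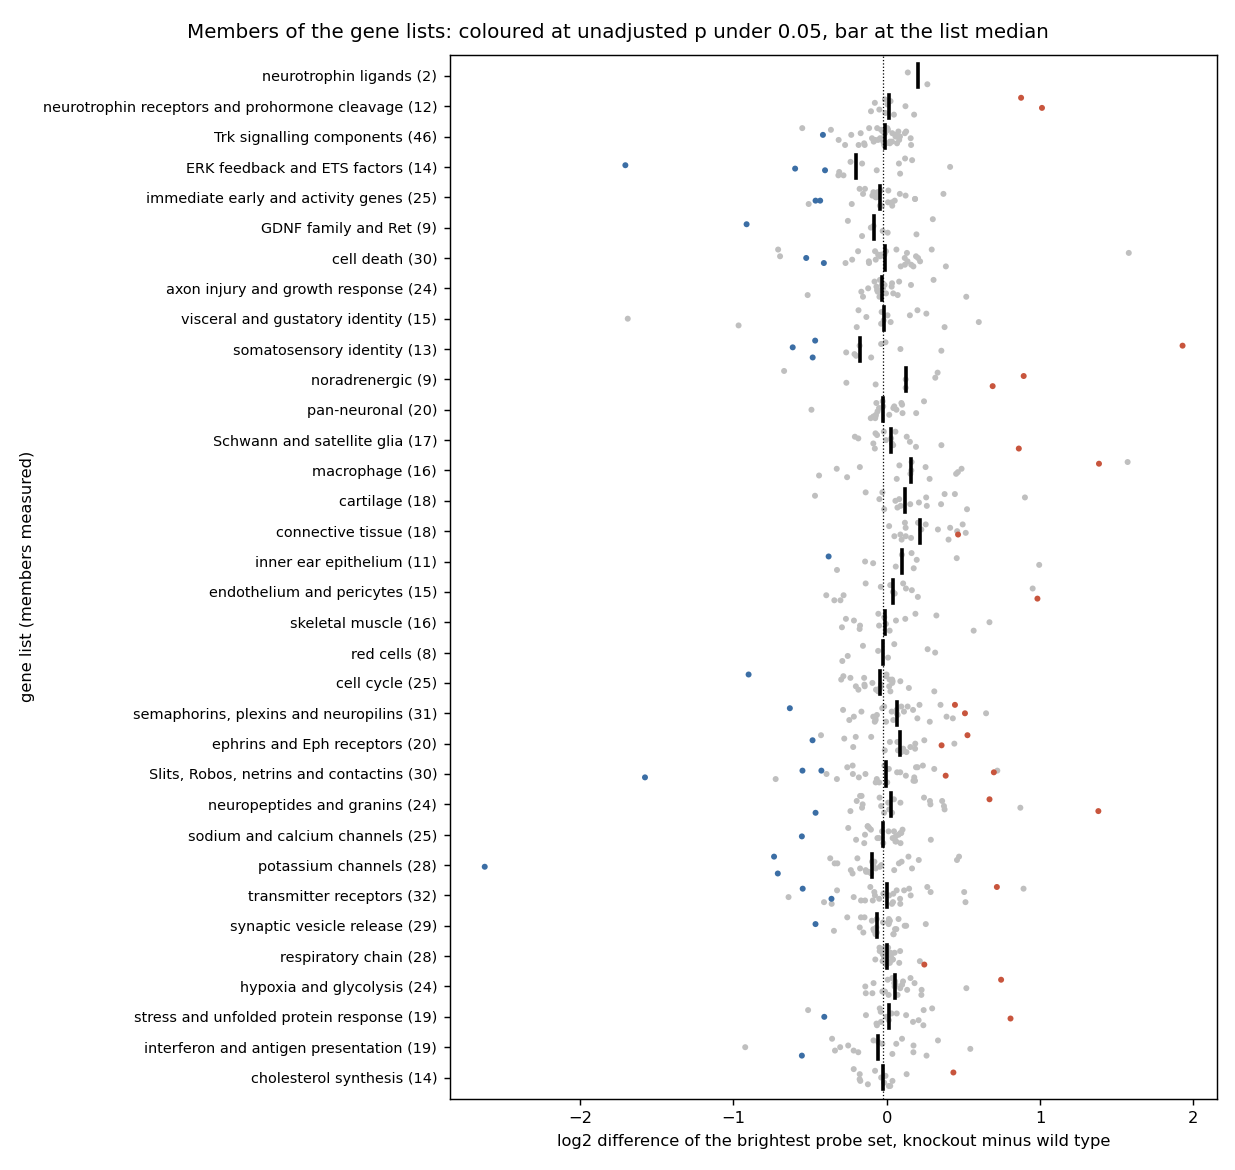
Log2 difference of the brightest probe set (knockout minus wild type) of each measured member of the 34 lists, with the number measured in brackets. Red and blue points had an unadjusted p under 0.05, black bars are list medians and the dotted line is the median of all genes, -0.02. The ERK feedback list (-0.20) and the somatosensory list (-0.18) have the lowest medians and the connective tissue list (0.22) the highest.

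The authors' deposited table of the BDNF line holds 667 probe sets, 284 higher and 383 lower in the knockout, and these are 1.48% of those tested. Its probe sets shared an absolute fold no smaller than 1.2, linear means 50 or more apart and a p-value under 0.05, and the same criteria applied to the deposited intensities, with unequal variances, gave the same 667. The median absolute fold in the authors' deposited table was 1.41, and 67 probe sets reached a fold of 2, 29 higher and 38 lower. All 8 probe sets past the adjusted threshold were on it, and 557 had a limma unadjusted p under 0.05. The table covers 549 genes by single symbol, of which 38 have 2 or more probe sets on it, and in 7 of these 38 the probe sets point in both directions.

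The largest folds in the authors' deposited table were, on the higher side, 10.56 for Bloc1s6, 5.44 for Aff4, a subunit of transcription elongation complexes, 4.53 for Pak6, 3.59 for the potassium channel gene Kcnk6, and 3.58 for 1456758_at, which has no symbol. On the lower side the authors' deposited table gives -23.7 for 1446755_at, -9.28 for Bdnf, -4.84 for 1447605_at, -3.71 for Rmdn3 and -3.27 for 1441701_at. In the limma fit Aff4 and Kcnk6 had adjusted p-values of 0.315 and 0.297, so 4 of these genes with a symbol passed there and 2 did not.

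Whether an effect was particular to the BDNF line was tested as the BDNF effect minus the NT4 effect. The test called 5 probe sets (0.0111%), and strain goes with the line in it. For Bdnf the difference of the effects was -3.23 (adjusted p = 0.0306), for Bloc1s6 3.35 (adjusted p = 0.0045) and for 1446755_at -4.69 (adjusted p = 0.0306). The others, Slc6a2 and 1441692_at, were not called in the BDNF line. Scg5, Rmdn3, Pak6, Nr5a2 and 1442514_a_at passed in the BDNF line but not in the test of the difference, with adjusted p-values of 0.139, 0.281, 0.221, 0.427 and 0.242, so for these it is not shown that the lines differ.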

How the data were processed

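RNA of geniculate ganglia was isolated with a micro column kit, treated with DNase, amplified with the WT-Ovation Pico system and hybridised to Affymetrix mouse 430 2.0 arrays, per the labels' protocols. The deposited values are linear intensities, 1 per probe set and array, and how the authors computed and scaled these intensities is not stated in the labels or headers used here. The authors' deposited table of the BDNF line lists means, a signed fold as a score and an unadjusted p-value.

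Log2 intensities of the 45037 probe sets that are not controls entered 1 limma model (version 3.58.1 under R 4.3.3) of all 12 arrays with 4 group means, and p-values were adjusted by Benjamini-Hochberg over all of them. The fit had 8 residual degrees of freedom, and 3 arrays per group limit its precision. On simulated data with 45037 probe sets it recovered 39% of changes of 1 log2 unit and 85% of changes of 2, with 3 false calls. The simulated noise was normal and independent between probe sets, without variation shared by genes on an array such as that of the lens genes. These rates need not hold for the real arrays. Of the probe sets, 34945 had 1 gene symbol in the platform annotation, 932 several and 9160 none, and 34736 matched the RefSeq gene table. A gene was read by its brightest probe set.

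Named in the text are all probe sets past the threshold, the neurotrophin ligands and receptors, the 10 leading genes per direction with agreeing probe sets, up to 4 members of each list by unadjusted p, family members for contrast, and the 5 largest folds per direction of the authors' deposited table. The members and lists were chosen with earlier results of these data known, and the lens genes after their values were seen. Alternatives were other scalings, an added offset, a filter on dim probe sets, the 6 arrays alone, a replicate block, a plain t statistic and arrays left out.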

Additional observations from a re-analysis of the deposited data

Results flagged for a closer look

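For 5 probe sets the effect of the knockout differed between the BDNF line and the NT4 line by the test of that difference, which is given here as the BDNF effect minus the NT4 effect on the log2 scale. It was 3.349 for Bloc1s6 1457088_at, -4.689 for 1446755_at, which has no symbol, and -3.234 for Bdnf 1422168_a_at. For Slc6a2, the noradrenaline transporter, it was 1.379 (adjusted p = 0.0306). There the BDNF line read 5719, 5822 and 5971 on wild-type arrays against 5975, 5930 and 7264 on knockout arrays, while the NT4 line averaged 2172 with NT4 and 911 without it. For 1441692_at, which has no symbol, it was -1.625 (adjusted p = 0.0413), with 149, 163 and 149 against 133, 105 and 134 in the BDNF line. Most of it came from the NT4 line, which averaged 79.2 with NT4 and 197 without it, while the BDNF effect was -0.32. Strain and line cannot be told apart in these differences.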

How the results depend on the processing

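The 8 calls of the comparison became 5 with arrays centred on their medians, 10 after quantile normalisation (5 higher, 5 lower, against 3 and 5), 12 with 16 added before log2, 9 with dim probe sets left out (the Bdnf probe set among them) and 9 with a trended prior. They became 0 in limma on the 6 arrays alone (2465 at an unadjusted p under 0.05), 0 with a replicate block (2986) and 0 with a plain t statistic (2336). They became 4 without both arrays of high Xist, 1 without single-symbol genes on chromosome 2 and, chosen after seeing the data, 2 without the arrays of highest and lowest lens level. Leaving out 1 array at a time gave 4 to 10, with 4 or 5 without any 1 of the BDNF wild type or NT4 wild type arrays. Deviations of same-numbered samples correlated at -0.06 to 0.05, and those of differently numbered samples at -0.07 to 0.05. The numbers thus showed no sign of pairing. Whether same-numbered samples shared a litter or day is not stated, and these correlations cannot decide it.

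The Bdnf difference of -3.18 became -2.57 with 16 added before log2 and -3.09 after quantile normalisation, past the threshold in both. It was -3.18 with adjusted p = 0.142 on the 6 arrays, 0.109 with the replicate block and 0.531 with the plain t statistic (limma for the first pair), and lay between -3.40 and -3.01 with 1 array left out. The 1 called list member, Scg5, became 0 with centring (51 at an unadjusted p under 0.05), on the 6 arrays (45), with the block (44), without the high-Xist arrays (44), with the plain t statistic (45) and without the lens extremes (42), and was 0 to 1 with 1 array left out. The 5 differences between lines became 3 with centring, 3 without dim probe sets, 0 with the block (2672), 1 without the high-Xist arrays and 0 without the lens extremes (2526), and 1 to 4 with 1 array left out. The authors' criteria gave 67 at a fold of 2 and 585 to 742 with 1 array left out. The 7 other called probe sets kept their call in 84 of 157 alternative values and never turned sign, and 21 named probe sets that were not called neither passed nor turned sign. The cause was not tested.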
